A study of Homo sapiens with 12 samples.

Results

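The 41 genes described here encode nuclear subunits of respiratory chain complexes II, III and IV and of complex V, the ATP synthase, together with the electron carrier cytochrome c. They were chosen by gene name from the deposited Huh7 table of 60666 listed genes, with 4 genes in complex II, 9 in complex III, 1 for cytochrome c, 11 in complex IV and 16 in complex V. Huh7 is an established human hepatocellular carcinoma (HCC) line. The 3 control libraries came from Huh7 cells carrying a lentiviral control construct and the 3 shFAM111B libraries from Huh7 cells carrying a lentiviral short hairpin RNA against FAM111B. Cells of both groups were made stable by puromycin selection. Hep3B libraries were not analysed here. Poly(A) RNA was sequenced and the values were deposited as TPM, a level per transcript length relative to the total of each library. The deposited TPM summed to between 994314 and 997094 in control and between 978634 and 994115 in shFAM111B libraries. The depth behind each TPM is unknown. The labels do not say that replicates were separate cultures, so the p-values measure the spread between these libraries, which may be technical.

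Complex II passes electrons from succinate to ubiquinone, complex III from ubiquinol to cytochrome c, and complex IV from cytochrome c to oxygen. Complexes III and IV pump protons, and complex V uses the proton gradient to make ATP. All complex II subunits are encoded in the nucleus, whereas complexes III, IV and V also hold subunits encoded by mitochondrial DNA. Hepatocytes rely heavily on this pathway, and liver cancer cells vary in how far they use it.

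The knockdown target was measured first. FAM111B had 7.84, 8.29 and 7.99 TPM in the control libraries and 0.96, 1.13 and 0.84 TPM in the shFAM111B libraries. The groups did not overlap, and the log2 fold change was -2.20 (SE 0.113, adjusted p = 6.09e-06, limma with Benjamini-Hochberg adjustment, n = 3 per group). This and every fold change below is on the log2(TPM + 1) scale and compares shFAM111B with control. All 10 hepatocyte markers were at or above 38.5 TPM in every library, and their summed level was 28244 ± 287 TPM in control and 43652 ± 2577 TPM in shFAM111B libraries (SD, n = 3). Of these 10, 4 were higher and 6 lower, and 5 were higher and 4 lower after median-of-ratios scaling. AFP, the fetal counterpart of albumin and the most abundant of them in both groups, went from 7274 to 23061 TPM, ALB from 6444 to 4161 TPM, APOB, the core protein of low-density lipoprotein, from 236.5 to 48.2 TPM and the hepatocyte transcription factor gene HNF4A from 98.1 to 40.6 TPM. Of the markers of other cell types, DCN, CD3E, CDH5, VWF and KDR were at or below 0.13 TPM in every library. The matrix gene LUM went from 0.883 to 2.79 TPM and was called higher (adjusted p = 0.00121), as was the collagen gene COL1A2, from 6.68 to 10.1 TPM (adjusted p = 0.0288), a call lost without a filter, after rescaling without mitochondrial-chromosome and short non-coding RNA genes, and in 4 of the 6 fits without 1 library. COL1A1 was lower in every shFAM111B library than in any control library (0.570 to 0.760 and 0.210 to 0.320 TPM) and PDGFRA overlapped between the groups (0.500 to 0.790 and 0.590 to 0.960 TPM), and neither was tested. Of the immune markers, PTPRC had 0.130, 0.040 and 2.39 TPM in control, where replicate 3 stood apart, and 0, 0.020 and 0 TPM in shFAM111B libraries, and was not tested. CD14 had a mean of 3.73 TPM in control and 2.53 TPM in shFAM111B libraries, with overlapping groups, and was not called (adjusted p = 0.0681). It was called lower after rescaling without mitochondrial-chromosome and short non-coding RNA genes (-0.57, adjusted p = 0.0407). Leaving out shFAM111B replicate 2 also gave a lower call (-0.64, adjusted p = 0.00785). The monocyte and macrophage gene LYZ was the most abundant of these markers and was called higher (adjusted p = 0.00708). LYZ had 262.2 ± 3.47 TPM in control and 304.2 ± 16.4 TPM in shFAM111B libraries (SD, n = 3). Its call was lost after quantile normalization and after rescaling without mitochondrial-chromosome and short non-coding RNA genes (0.082, adjusted p = 0.105). The sign turned, without a call, once the dependence of fold change on length and expression was subtracted (-0.020, adjusted p = 0.747). The summed level of the 5 fibroblast markers was 8.86 ± 1.41 TPM in control and 13.96 ± 2.44 TPM in shFAM111B libraries, that of 4 immune markers 266.8 ± 2.81 and 306.8 ± 15.6 TPM, and that of the 4 endothelial markers 1.84 ± 0.528 and 2.75 ± 0.680 TPM (SD, n = 3). PECAM1, the only endothelial marker tested, went from a mean of 1.82 to 2.73 TPM, with overlapping groups, and was not called (adjusted p = 0.109). It was called higher under median-of-ratios (0.72, adjusted p = 0.0153), upper-quartile, quantile and median-centred scaling. The same call came once the dependence of fold change on length and expression was subtracted (1.14, adjusted p = 0.00227). The part of these markers in the results was not tested.

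The sequences before the transcript starts of 3 genes are shown because SDHD had the lowest fold change of the 41 genes and UQCR11 and COX7B the highest of complexes III and IV. Nuclear respiratory factor NRF1, the ETS factor GABP and YY1 are known regulators of genes for respiratory chain subunits. For UQCR11 and COX7B the 200 bases before the RefSeq start are printed and for SDHD the first 130 of them, on the gene's own strand (GRCh38.p14), 5′ to 3′, with capitals for the letters GCGCATGC (NRF1), CCGGAAG (ETS) or AAGATGGC (YY1) on either strand.
SDHD, chr11:112086673-112086802, plus strand: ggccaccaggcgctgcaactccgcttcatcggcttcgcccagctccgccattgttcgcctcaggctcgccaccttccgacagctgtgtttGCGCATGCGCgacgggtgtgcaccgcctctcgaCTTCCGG
UQCR11, chr19:1605463-1605662, minus strand: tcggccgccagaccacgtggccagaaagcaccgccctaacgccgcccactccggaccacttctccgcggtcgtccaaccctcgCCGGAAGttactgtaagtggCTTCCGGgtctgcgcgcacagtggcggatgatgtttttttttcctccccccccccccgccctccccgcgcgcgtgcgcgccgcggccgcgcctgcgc
COX7B, chrX:77899268-77899467, plus strand: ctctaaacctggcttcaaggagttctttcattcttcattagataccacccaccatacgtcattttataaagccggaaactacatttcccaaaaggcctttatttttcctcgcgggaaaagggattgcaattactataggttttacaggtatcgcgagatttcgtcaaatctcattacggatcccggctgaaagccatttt

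SDHD held the NRF1 letters on both strands in an overlapping run and 1 ETS match, UQCR11 held 2 ETS matches, and COX7B held none of the 3 motifs in the printed bases. In GENCODE v29 the last 30 printed bases of SDHD and COX7B and the last 28 of UQCR11 lie in an exon of the gene itself, and the SDHD bases overlap the first exon of TIMM8B, which lies on the other strand, and its coding sequence at 96 bases. In windows from 250 bases before to 50 after the start, which 33 of the 41 genes had in the RefSeq table, the NRF1 letters were found for 9 (27.3%), against 3.68% of all 27305 genes of that table and 6.42% of the 10126 tested genes matched to it. The ETS letters were found for 15 (45.5%, against 12.2% and 22.9%), the YY1 letters for 5 (15.2%, against 3.52% and 6.58%) and the SP1 letters GGGCGG for 20 (60.6%, against 48.3% and 75.9%). Both strands were searched, and where a gene had several windows a match in any of them counted. SDHD, with the lowest fold change of all 41 genes, held NRF1 and ETS matches, and COX7B, with the highest, held neither. These matches describe letters in a window and are not shown to be binding sites.

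All 41 genes passed the filter of at least 1 TPM in at least 3 libraries, with levels from 38.5 to 2172 TPM. In shFAM111B cells 31 of them were higher, 7 were lower and 3 were not called at an adjusted p under 0.05. Of all 14394 tested genes, 21.1% were called higher and 50.9% lower. After median-of-ratios scaling 36 of the 41 genes were higher and 2 lower (tested genes 35.8% and 35.2%), and after quantile normalization 27 were higher and 7 lower (32.5% and 36.8%). At 2-fold or more, 11 of the 41 genes were higher and 1 was lower, against 6.77% and 23.7% of the tested genes. These counts were 26 and 0 after median-of-ratios scaling (tested genes 14.01% and 12.5%) and 6 and 0 after quantile normalization (11.6% and 12.8%). The median log2 fold change was 0.76 over the 41 genes and -0.36 over all tested genes, and 38 of the 41 genes lay above the median tested gene. The values of the groups did not overlap for 38 of the 41 genes, against 75.2% of the tested genes. With 3 libraries against 3, an exact permutation test of 1 gene cannot give a two-sided p below 0.1.

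**Figure D1:**
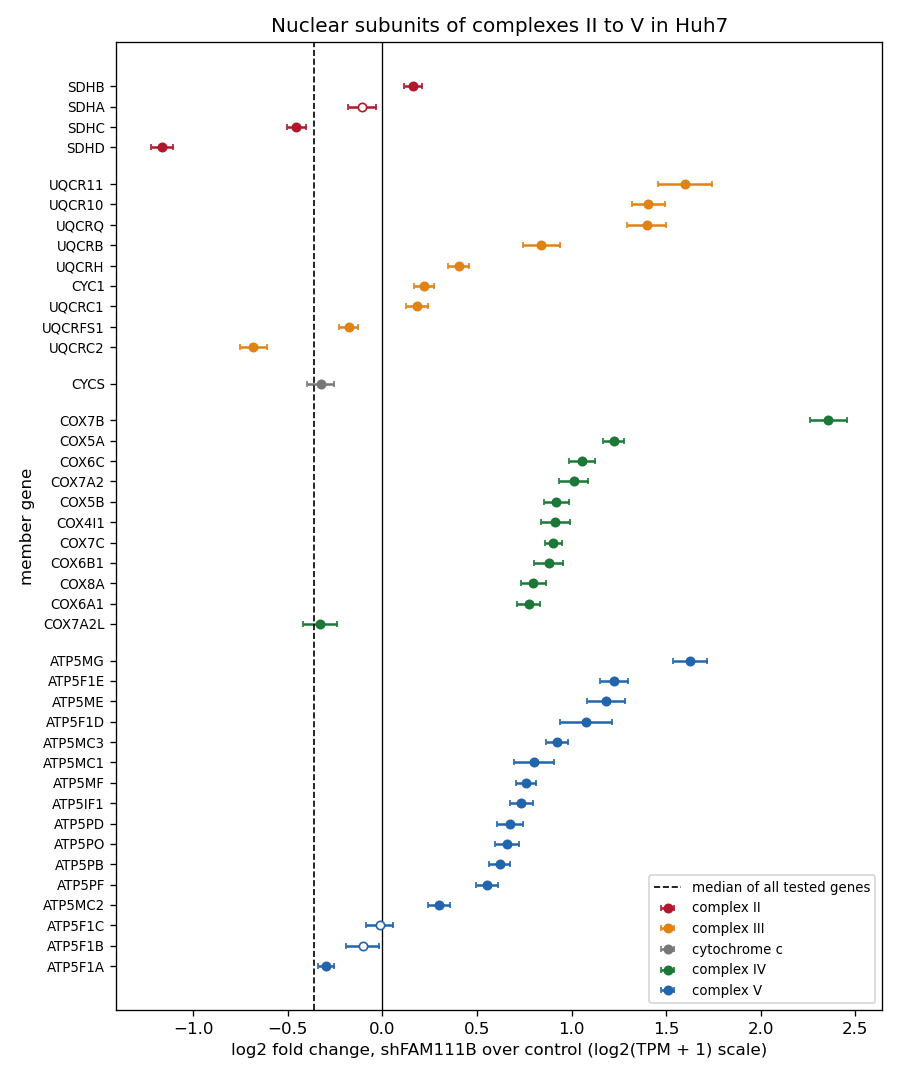
Log2 fold change (x axis, log2(TPM + 1) scale) of each of the 41 genes, grouped by complex, with standard errors from limma (3 libraries per group). Filled points had an adjusted p under 0.05, open points did not, and the dashed line is the median of all tested genes (-0.36). Complexes III, IV and V lie mostly to the right of 0 and complex II mostly to the left, though the complex II median turned positive under 3 other scalings.

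In complex II, 1 gene was higher, 2 were lower and 1 was not called, with a median log2 fold change of -0.28, which turned positive under median-of-ratios, upper-quartile and median-centred scaling (0.17, 0.13 and 0.25). These complex II counts are near the shares of all tested genes (21.1% higher, 50.9% lower), and its median is near theirs. In complex III, 7 genes were higher and 2 lower (median 0.40). In complex IV, 10 were higher and 1 lower (median 0.91). In complex V, 13 were higher, 1 was lower and 2 were not called (median 0.70). The medians of complexes III, IV and V stayed positive under all alternatives tried. Of the 31 genes called higher, 22 kept their direction and call under all 10 alternatives other than leaving out a library, and they comprised 4 genes of complex III, 6 of complex IV and 12 of complex V. Of the 7 genes called lower, SDHD alone did so.

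The nuclear subunits were also summed as TPM, a level per length. Complex II went from 411.4, 404.9 and 385.3 TPM in control to 319.6, 313.2 and 331.0 TPM in shFAM111B libraries, and complex III went from 1610, 1696 and 1618 to 2606, 2445 and 2846 TPM. Complex IV went from 3937, 4051 and 4102 to 7836, 7303 and 8562 TPM, and complex V from 6080, 6187 and 6167 to 9600, 9001 and 10712 TPM. The groups did not overlap for any of the 4 sums, which carry no test. The ratio of the complex IV sum to the complex II sum, which a scaling factor per library leaves as it is, was 10.1 ± 0.541 in control and 24.6 ± 1.28 in shFAM111B libraries (SD, n = 3). Such a factor does not remove a dependence of fold change on length, here or in the ratios between genes below. The longest annotated coding sequence had a median of 327 bases in complex IV and 673.5 in complex II. The part of length in these ratios was not tested.

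**Figure D2:**
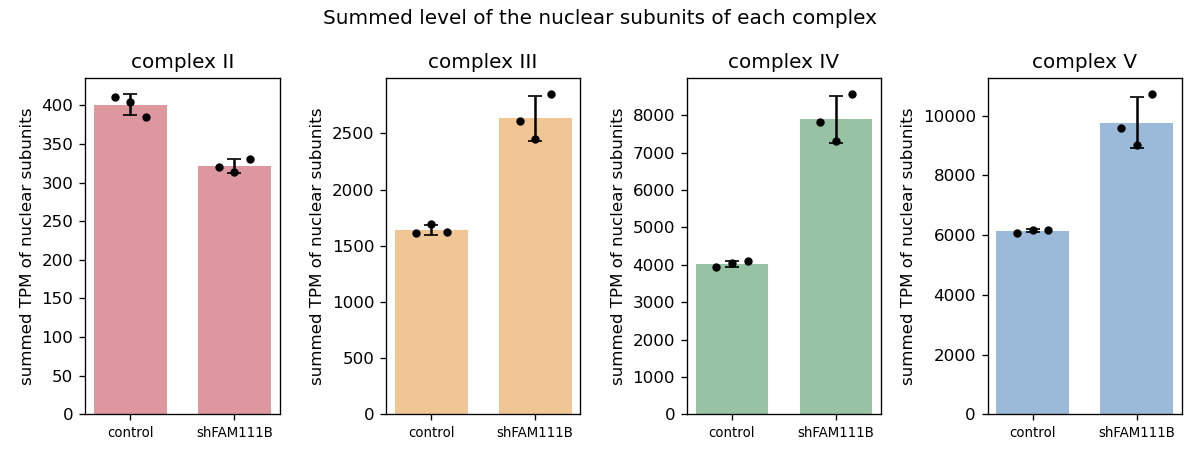
Summed TPM of the nuclear subunits of each complex in control and shFAM111B libraries. Bars are means of 3 libraries, error bars are SD and points are libraries, and each panel has its own axis from 0. The mean was 400.5 and 321.3 TPM for complex II and 4030 and 7901 TPM for complex IV.

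The libraries of the shFAM111B group were not alike. Short non-coding RNA genes held 1.20%, 1.15% and 0.871% of the TPM in the control libraries and 5.26%, 7.55% and 0.876% in shFAM111B replicates 1 to 3. Genes of the mitochondrial chromosome held 20.2%, 20.2% and 19.7% in control and 7.82%, 8.06% and 7.37% in shFAM111B libraries. shFAM111B replicate 3 had the highest value of its group for 33 of the 41 genes and replicate 2 the lowest for 29. The coefficient of variation had a median of 3.68% over the genes in control and 8.24% in shFAM111B libraries. Without shFAM111B replicate 3, 31 genes were higher and 9 lower (tested genes 19.6% and 50.5%), and the medians of complexes II to V were -0.32, 0.39, 0.86 and 0.65. The part of these library differences in the results was not tested. In bulk RNA, fewer cells with a transcript and less of it per cell cannot be told apart.

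In complex II, SDHA, the flavoprotein that oxidises succinate, had 76.5, 77.3 and 74.8 TPM in control and 66.5, 67.3 and 79.0 TPM in shFAM111B libraries. The groups overlapped because shFAM111B replicate 3 was above all controls, and the log2 fold change was -0.11 (SE 0.0744, adjusted p = 0.235). Without that library it was called lower at -0.19 (adjusted p = 0.0153), as it was after rescaling without mitochondrial-chromosome and short non-coding RNA genes (-0.24, adjusted p = 0.00794). It was called higher under median-of-ratios (0.34, adjusted p = 0.00337), upper-quartile and median-centred scaling and once the dependence of fold change on length and expression was subtracted. SDHB, the iron-sulphur subunit, had 104.5, 105.0 and 101.2 TPM in control and 118.9, 110.5 and 118.7 TPM in shFAM111B libraries, a log2 fold change of 0.16 (SE 0.0490, adjusted p = 0.0204). It was the only complex II gene called higher, but it was called lower once the dependence of fold change on length and expression was subtracted (-0.26, adjusted p = 0.00306). The call was lost after rescaling without mitochondrial-chromosome and short non-coding RNA genes (adjusted p = 0.588). It was also lost when control replicate 3 or shFAM111B replicate 1 was left out (adjusted p = 0.0629 and 0.0761). Median-of-ratios, upper-quartile and median-centred scaling called SDHB higher at 0.61, 0.57 and 0.69.

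SDHD, which anchors the complex in the membrane, had 95.1, 91.7 and 86.5 TPM in control and 40.2, 41.6 and 38.5 TPM in shFAM111B libraries. The highest shFAM111B value was 48.1% of the lowest control value, and the log2 fold change of -1.16 (SE 0.0585, adjusted p = 5.59e-06) was the lowest of the 41 genes. Under median-of-ratios, upper-quartile and median-centred scaling SDHD was at -0.72, -0.76 and -0.63 and was still called lower. SDHC, its partner in the membrane, also fell, by 0.46 (SE 0.0499, adjusted p = 0.000151), but less than 0.10 below the median tested gene, and it lost its call under 3 scalings, with a positive sign under median centring. The ratio of SDHB to SDHD, which such factors also leave as it is, was 1.14 ± 0.0359 in control and 2.90 ± 0.221 in shFAM111B libraries (SD, n = 3). SDHD lies on chromosome 11 from 112086773 to 112120013 and SDHB on chromosome 1 from 17018722 to 17054170 (GRCh38, GENCODE v29).

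In complex III, UQCRC2, a core subunit on the matrix side, had 111.1, 107.9 and 103.6 TPM in control and 61.1, 72.1 and 67.0 TPM in shFAM111B libraries. The groups were well apart, with a log2 fold change of -0.68 (SE 0.0698, adjusted p = 0.000106), which shrank to -0.23 under median-of-ratios scaling and lost its call under median centring (-0.15, adjusted p = 0.0918). Its partner UQCRC1 went the other way, from 225.9, 239.2 and 257.2 to 271.0, 285.0 and 263.4 TPM (log2 fold change 0.18, SE 0.0600, adjusted p = 0.0283), and this call was lost in 4 of the 6 fits without 1 library, without a filter, after rescaling without mitochondrial-chromosome and short non-coding RNA genes (0.052, adjusted p = 0.543), once the dependence on length and expression was subtracted and after quantile normalization, where the sign turned (-0.014). Under median-of-ratios scaling it was at 0.64 (adjusted p = 8.87e-05).

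Of the genes whose products carry the electrons, the Rieske iron-sulphur protein gene UQCRFS1 had 51.1, 50.9 and 51.7 TPM in control and 43.5, 45.9 and 46.1 TPM in shFAM111B libraries (log2 fold change -0.18, SE 0.0504, adjusted p = 0.0151), with a positive sign under 4 scalings, of which median-of-ratios, upper-quartile and median-centred scaling called it higher, and the call lost without shFAM111B replicate 1 (adjusted p = 0.0610). CYC1, cytochrome c1, had 153.6, 167.1 and 165.1 TPM in control and 193.0, 179.6 and 194.0 TPM in shFAM111B libraries (log2 fold change 0.22, SE 0.0542, adjusted p = 0.0083), a call lost after quantile normalization (adjusted p = 0.0611) and after rescaling without mitochondrial-chromosome and short non-coding RNA genes (adjusted p = 0.139). The CYC1 call was also lost once the dependence on length and expression was subtracted. CYC1 was at 0.67 under median-of-ratios scaling (adjusted p = 3.73e-05). CYCS, the soluble carrier between complexes III and IV, had 199.8, 204.8 and 184.2 TPM in control and 152.1, 170.9 and 146.2 TPM in shFAM111B libraries. Its log2 fold change was -0.33 (SE 0.0723, adjusted p = 0.00507), about that of the median tested gene. It turned positive under 3 scalings, with a call under median centring (0.21, adjusted p = 0.0438). Its lower call was also lost once the dependence on length and expression was subtracted.

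The 5 small complex III subunits were all higher. UQCR11 had 95.9, 100.1 and 101.9 TPM in control and 277.4, 259.3 and 386.7 TPM in shFAM111B libraries, so the lowest shFAM111B value was 2.54-fold the highest control value. Its log2 fold change of 1.60 (SE 0.142, adjusted p = 5.35e-05) was the highest in complex III, and its shFAM111B values varied most of the 41 genes (coefficient of variation 22.4%). UQCR10 and UQCRQ followed (both 1.40), then UQCRB (0.84) and UQCRH, the hinge protein (0.40), though UQCRH was at -0.018 after quantile normalization and was called lower once the dependence on length and expression was subtracted (-0.34, adjusted p = 0.00144). UQCR11 lies on chromosome 19 from 1597172 to 1605490 and UQCRC2 on chromosome 16 from 21952660 to 21983660.

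**Figure D3:**
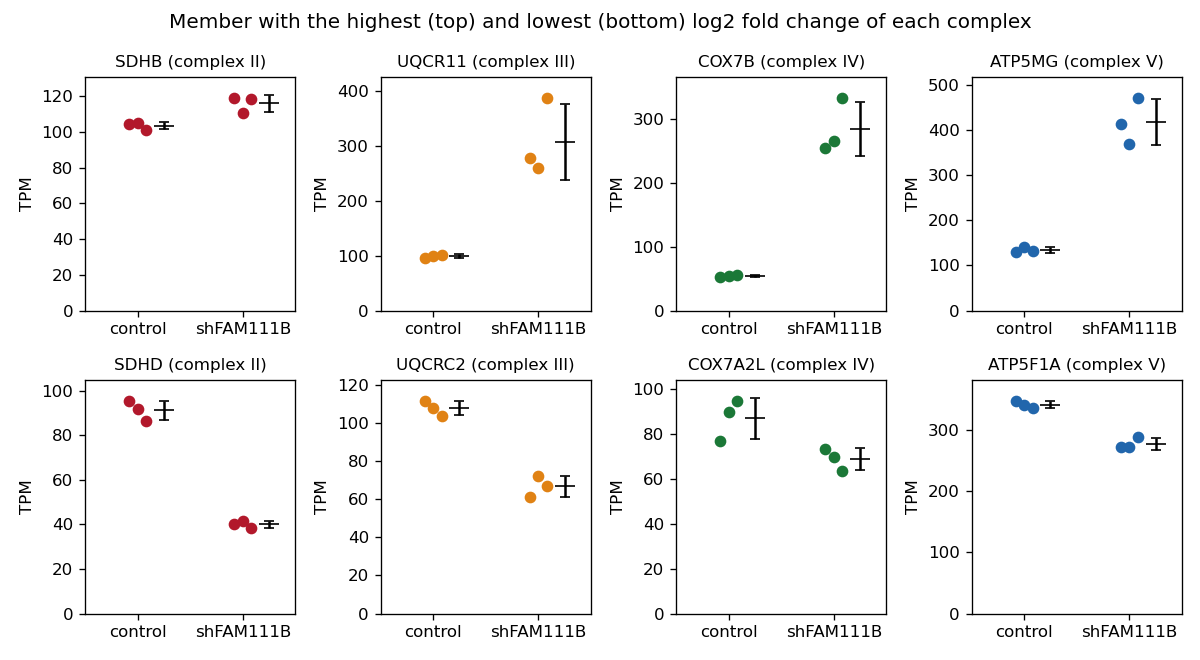
TPM (y axis from 0) of the gene with the highest and the gene with the lowest log2 fold change of each complex. Coloured points are libraries, and black marks are the mean and SD of 3 libraries. COX7B went from 54.2 to 283.8 TPM and SDHD from 91.1 to 40.1 TPM. The groups do not overlap in any panel, nor do they for 75.2% of all tested genes. COX7A2L and ATP5F1A, shown as lower, changed sign under 3 scalings. SDHB, shown as higher, was called lower once the dependence of fold change on length and expression was subtracted (-0.26). It lost its call after rescaling without mitochondrial-chromosome and short non-coding RNA genes.

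In complex IV all genes but COX7A2L were higher, though once the dependence on length and expression was subtracted COX8A was called lower (-0.24, adjusted p = 0.0169) and COX5B, COX6A1 and COX6B1 lost their calls. COX4I1, the ubiquitous form of the regulatory subunit that binds adenine nucleotides, had 634.8, 635.9 and 665.0 TPM in control and 1236, 1087 and 1340 TPM in shFAM111B libraries. The lowest shFAM111B value was 1.64-fold the highest control value (log2 fold change 0.91, SE 0.0770, adjusted p = 4.2e-05). COX5A, a matrix-side subunit, went from 590.3, 642.1 and 601.1 to 1426, 1344 and 1513 TPM (log2 fold change 1.22, SE 0.0579, adjusted p = 4.65e-06). Apart from COX7B, the other 9 genes called higher had log2 fold changes from 0.77 to 1.22.

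COX7B, a small subunit with a single membrane span, had 52.6, 54.5 and 55.4 TPM in control and 254.6, 265.5 and 331.5 TPM in shFAM111B libraries. It had the lowest control level of complex IV and the highest fold change of all 41 genes, at 2.36 (SE 0.0993, adjusted p = 3.56e-06), and its ratio to COX4I1 went from 0.0840 ± 0.00150 to 0.232 ± 0.0231 (SD, n = 3). COX7A2L was the exception in the other direction, with 77.0, 89.9 and 94.6 TPM in control and 73.6, 69.7 and 63.7 TPM in shFAM111B libraries (log2 fold change -0.33, SE 0.0914, adjusted p = 0.0140). This gene, also known as SCAFI, links complexes III and IV into supercomplexes. Its fold change was about that of the median tested gene and was positive under 3 scalings, with no call there. It also lost its lower call after quantile normalization (-0.20, adjusted p = 0.105) and once the dependence on length and expression was subtracted. Its relative COX7A2, a regular subunit, rose by 1.01, and the longest identical run between transcripts of the pair was 21 bases. COX7B lies on chromosome X from 77899438 to 77907373 and COX7A2L on chromosome 2 from 42333546 to 42425088. The forms specific to other tissues (COX4I2, COX6A2, COX6B2, COX7A1, COX7B2 and COX8C) were not tested and were below 1 TPM in every library.

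In complex V the alpha and beta subunits of the catalytic head and the gamma subunit of the rotor were the only ones not called higher. All 3 were positive under median-of-ratios scaling. ATP5F1A, the alpha subunit, had 346.9, 341.6 and 336.3 TPM in control and 272.3, 272.0 and 288.7 TPM in shFAM111B libraries (log2 fold change -0.30, SE 0.0425, adjusted p = 0.000575), but it was called higher under median-of-ratios (0.16, adjusted p = 0.00928), upper-quartile (0.11) and median-centred scaling (0.23). The lower call of ATP5F1A was lost once the dependence on length and expression was subtracted. ATP5F1B, the beta subunit that holds the catalytic sites, had 751.0, 766.6 and 782.4 TPM in control and 649.6, 676.2 and 823.3 TPM in shFAM111B libraries. Its groups overlapped through shFAM111B replicate 3 (log2 fold change -0.11, SE 0.0884, adjusted p = 0.316), and without that library it was called lower at -0.21. ATP5F1C, the gamma subunit of the rotor, was not called either (log2 fold change -0.015, adjusted p = 0.867). Both ATP5F1B and ATP5F1C were called lower after quantile normalization (-0.51 and -0.24), after rescaling without mitochondrial-chromosome and short non-coding RNA genes (-0.24 and -0.14) and once the dependence on length and expression was subtracted (-0.25 and -0.43), and both were called higher under median-of-ratios, upper-quartile and median-centred scaling.

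The delta and epsilon subunits rose, ATP5F1D (delta) by 1.08 and ATP5F1E (epsilon) by 1.23. The ratio of ATP5F1E to ATP5F1A was 0.157 ± 0.00555 in control and 0.458 ± 0.0256 in shFAM111B libraries (SD, n = 3). The peripheral stalk, which holds the head still, was higher throughout, with 0.55 for ATP5PF, 0.62 for ATP5PB, 0.66 for ATP5PO and 0.67 for ATP5PD. The membrane subunits that help the enzyme to form dimers were also higher, with 0.76 for ATP5MF, 1.18 for ATP5ME and 1.62 for ATP5MG. ATP5MG had 129.9, 141.1 and 132.3 TPM in control and 415.1, 369.4 and 470.9 TPM in shFAM111B libraries, the highest fold change of complex V (SE 0.0893, adjusted p = 7.53e-06). ATP5IF1, the inhibitor that blocks ATP hydrolysis by the enzyme, had 405.4, 404.4 and 410.0 TPM in control and 657.5, 635.8 and 743.0 TPM in shFAM111B libraries (log2 fold change 0.73, SE 0.0626, adjusted p = 4.45e-05). Its ratio to ATP5F1B went from 0.531 ± 0.00827 to 0.952 ± 0.0557 (SD, n = 3). ATP5MG lies on chromosome 11 from 118401154 to 118431496 and ATP5F1A on chromosome 18 from 46080248 to 46104334.

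The c-ring, the part of the rotor that protons turn, is built from 1 mature protein that the separate genes ATP5MC1, ATP5MC2 and ATP5MC3 encode. Parts of their coding sequences are shown to set these closely related genes side by side. The last 90 coding bases before the stop codon (GENCODE v29), with capitals at the 25 positions where the 3 genes are not all alike, 21 of them at the last base of a codon, read as follows.
ATP5MC1: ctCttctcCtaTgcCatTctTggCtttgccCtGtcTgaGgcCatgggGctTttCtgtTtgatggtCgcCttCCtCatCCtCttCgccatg
ATP5MC2: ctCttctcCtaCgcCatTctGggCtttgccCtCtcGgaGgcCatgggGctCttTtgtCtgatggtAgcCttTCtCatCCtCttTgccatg
ATP5MC3: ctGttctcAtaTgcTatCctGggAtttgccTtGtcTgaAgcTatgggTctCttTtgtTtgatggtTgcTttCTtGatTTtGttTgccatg

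Over these 90 bases ATP5MC1 and ATP5MC2 were identical at 88.9%, ATP5MC1 and ATP5MC3 at 77.8% and ATP5MC2 and ATP5MC3 at 76.7%. The longest identical run between transcripts was 17 bases for ATP5MC1 and ATP5MC2, 16 for ATP5MC1 and ATP5MC3 and 38 for ATP5MC2 and ATP5MC3. ATP5MC1 had 261.7, 275.1 and 224.7 TPM in control and 415.9, 411.2 and 503.5 TPM in shFAM111B libraries (log2 fold change 0.80, adjusted p = 0.000363). ATP5MC3 went from 242.7, 266.6 and 257.8 to 468.9, 469.9 and 519.9 TPM (log2 fold change 0.92, adjusted p = 1.34e-05). ATP5MC2 rose least, from 437.4, 444.1 and 468.8 to 555.5, 519.9 and 591.2 TPM (log2 fold change 0.30, adjusted p = 0.00265), and was at -0.12 after quantile normalization. The shares of the summed c-ring level do not depend on such factors. ATP5MC2 held 46.4%, 45.1% and 49.3% in control and 38.6%, 37.1% and 36.6% in shFAM111B libraries, and ATP5MC3 rose from between 25.8% and 27.1% to between 32.2% and 33.5%. ATP5MC1 held 23.6% to 27.9% in control and 28.9% to 31.2% in shFAM111B libraries.

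Genes with longer coding sequences had lower fold changes across the 41 genes. The Spearman correlation with the longest annotated coding sequence was -0.67 (n = 41) and that with the longest transcript -0.35, against -0.37 and -0.46 over the tested genes with such a length. These are descriptions without a p, since the genes share 6 libraries and fold changes across the whole table followed length as well. The correlation with coding length was -0.90 in complex III (n = 9), -0.81 in complex V (n = 16) and 0.16 in complex IV (n = 11), where no coding sequence exceeds 507 bases. The 26 genes with up to 500 coding bases had a median log2 fold change of 0.89, against 0.38 for the 1079 tested genes of that class. For the 10 genes over 700 bases the median was -0.06, against -0.57 for 9856 tested genes. SDHD, CYCS and COX7A2L were the only genes of the short class with a negative fold change. Once the dependence of fold change on transcript length and mean expression, fitted over all tested genes, was subtracted, 25 of the 41 genes kept their direction and call, and the medians of complexes II to V were -0.094, 0.28, 0.44 and 0.61. The part of transcript length in the results was not tested further.

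**Figure D4:**
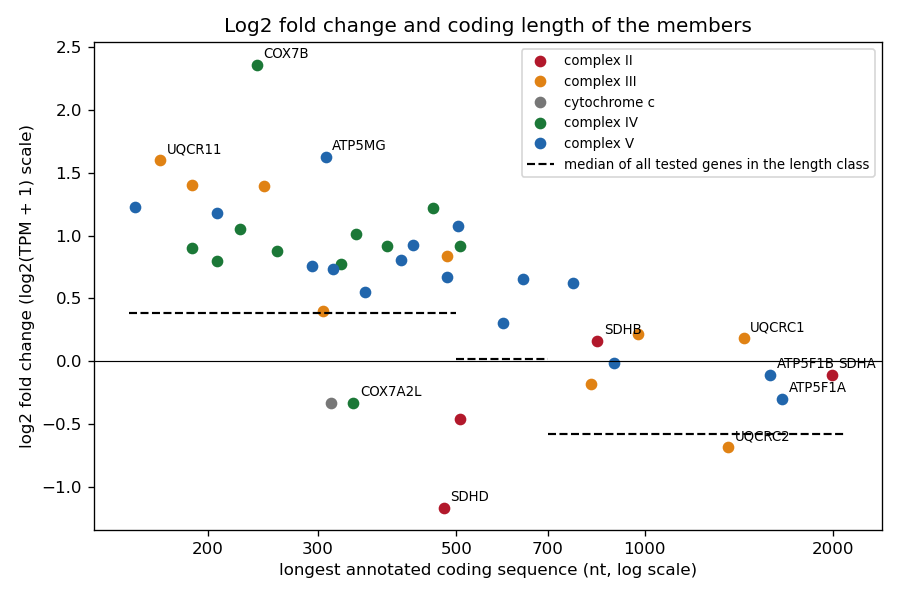
Log2 fold change (y axis, log2(TPM + 1) scale) against the longest annotated coding sequence (x axis, nt, log scale) of the 41 genes, coloured by complex. Dashed lines are the medians of all tested genes of up to 500, over 500 to 700 and over 700 coding bases (0.38, 0.020 and -0.57). Most points lie above the dashed line of their class, and SDHD, at -1.16, lies farthest below.

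The subunits encoded by mitochondrial DNA are the partners of these nuclear subunits. All 6 measured (MT-CYB of complex III, MT-CO1, MT-CO2 and MT-CO3 of complex IV, MT-ATP6 and MT-ATP8 of complex V) were lower, from -0.36 for MT-CO2 to -4.32 for MT-ATP8, though MT-CO2 was positive under median-of-ratios (0.094), upper-quartile (0.053) and median-centred scaling (0.17), and 3 to 5 of the 6 were called lower under these and quantile normalization. Median centring called MT-CO2 higher (adjusted p = 0.0136). MT-CO2 was also positive, without a call, once the dependence on length and expression was subtracted (0.076, adjusted p = 0.187). MT-ATP8 overlaps MT-ATP6 on the same strand, so the split of reads between the pair is uncertain. The summed level of MT-CO1 to MT-CO3 over that of the nuclear complex IV genes was 13.6, 13.4 and 12.6 in control and 4.32, 4.61 and 3.91 in shFAM111B libraries. The ratio was far lower in every shFAM111B library than in any control library.

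Subunits outside the 41 genes that the table lists under the names used here were higher as well, at 1.56 for NDUFA4, a subunit of complex IV, 1.17 for ATP5MPL and 0.75 for ATP5MD, small subunits of complex V. Assembly factors, which build the complexes but do not stay in them, moved both ways. Of 46 listed, 43 were in the table and tested, with 19 higher, 16 lower and 8 not called (median log2 fold change 0.15). Median-of-ratios scaling turned these counts to 26 higher and 4 lower. As shares of the 14394 tested genes, 21.1% were higher and 50.9% lower, and 35.8% and 35.2% after that scaling. Complex IV factors ranged from 1.89 for PET100 to -1.17 for COX18, which inserts MT-CO2 into the membrane, with 15 of 27 higher and 9 lower. Complex III factors ranged from 1.73 for UQCC2 to -0.92 for TTC19 (2 of 7 higher, 3 lower) and complex V factors from 1.70 for FMC1 to -0.64 for ATPAF1 (1 of 5 higher, 3 lower). Among the 4 complex II factors SDHAF1 was highest (0.83, called higher) and SDHAF3 lowest (-0.34, called lower).

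Pseudogene copies can take reads from some of these genes. The table lists 157 pseudogenes named after 30 of the 41 genes, and for 4 of these genes they reached 5 TPM in sum in a library. Their highest sum in any library was set against the lowest value of the gene in any library. This share was largest for UQCRFS1 (15.8 TPM, 36.2%) and SDHA (23.5 TPM, 35.3%). The mean sum was 14.1 TPM in control and 4.38 TPM in shFAM111B libraries for UQCRFS1, and 22.4 and 19.0 TPM for SDHA. The values of these genes are therefore less certain, and the part of the copies in their fold changes was not tested. The 41 genes lie on 20 chromosomes, with no more than 5 on any of them.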

How the data were processed

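The members and gene lists were chosen with earlier results of these data known. RNA sequencing values of 3 control and 3 shFAM111B Huh7 libraries were used. The authors deposited TPM per library. The submitters' processing notes name RSEM, DESeq2 and hg38, with no role or version. The deposited table also holds group means of TPM and the authors' comparison of the groups (the fold as a ratio and on a log2 scale, with raw and adjusted p-values), and none of these was used. TPM keep no depth, so depth and counting error are unknown, and TPM are relative, so a fall of abundant genes raises all others.

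The 14394 genes that reached 1 TPM in 3 or more libraries were compared on log2(TPM + 1) in limma 3.58.1 (R 4.3.3, lmFit and eBayes with a trend, no covariates) with Benjamini-Hochberg adjustment over all of them. The pseudocount understates changes of low genes. The fit was tested on simulated data, where smaller changes were recovered less often than larger ones. All members could be named, with values in every library for FAM111B, a fixed functional core and the extremes of each complex, and the extremes of each other list. Lengths and positions are from GENCODE v29 (58420 of 60666 identifiers matched), promoters from RefSeq (GRCh38.p14). Python 3.11.15, pandas 2.3.3, scipy 1.17.1 and matplotlib 3.10.9 made tables and figures. Alternatives were filters, a pseudocount of 0.1, scalings, leaving out MT and short non-coding genes, a replicate block, each library left out, and removal of a loess trend (span 0.75). Coding length and the 2-fold limit were added after the data were seen. One further immune marker is not reported here. No library pair was a duplicate (under 1% of values identical).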

Additional observations from a re-analysis of the deposited data

How the results depend on the processing

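Direction and call were kept for 25 of the 41 genes when the dependence on length and expression was subtracted and for 32 or 33 under median-of-ratios, upper-quartile, median-centred and quantile scaling. Median-of-ratios scaling gave 36 genes higher and 2 lower (tested genes 35.8% and 35.2%). At 2-fold or more it gave 26 and 0 (14.01% and 12.5%), with medians of 0.17, 0.86, 1.37 and 1.16 for complexes II to V. Upper-quartile scaling gave 36 genes higher and 2 lower (tested genes 34.3% and 36.4%). At 2-fold or more it gave 25 and 0 (13.1% and 13.2%), with medians of 0.13, 0.82, 1.33 and 1.12. Subtracting each library's median gave 37 genes higher and 1 lower (tested genes 41.6% and 29.4%). At 2-fold or more it gave 26 and 0 (17.9% and 9.07%), with medians of 0.25, 0.94, 1.45 and 1.24. In this order of scalings, the sign turned positive for COX7A2L (0.12, 0.079 and 0.20), CYCS (0.12, 0.085 and 0.21), ATP5F1A (0.16, 0.11 and 0.23), ATP5F1C (0.44, 0.40 and 0.52), SDHA (0.34, 0.30 and 0.43), ATP5F1B (0.35, 0.31 and 0.43) and UQCRFS1 (0.27, 0.23 and 0.35), and for SDHC under the last (0.077). Quantile normalization gave 6 genes higher and 0 lower at 2-fold or more and medians of -0.20, 0.13, 0.54 and 0.39, and reversed SDHA (0.040), UQCRFS1 (0.11), UQCRH (-0.018), ATP5MC2 (-0.12) and UQCRC1 (-0.014). These scalings brought the median tested gene from -0.36 to 0.03, -0.01, 0.17 and -0.03.

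Rescaling without mitochondrial-chromosome and short non-coding RNA genes gave medians of -0.41 (complex II), 0.27 (complex III) and 0.57 (complex V), and log2 ratios of the summed levels of -0.45, 0.55, 0.84 and 0.54 for complexes II to V, against -0.32, 0.68, 0.97 and 0.67. Subtracting the dependence on length and expression gave 6 genes higher at 2-fold or more (tested genes 9.54%) and medians of -0.094, 0.28, 0.44 and 0.61, and reversed COX8A (-0.24), SDHB (-0.26), SDHC (0.072), SDHA (0.20), UQCRH (-0.34) and UQCRFS1 (0.28). The correlation of fold change with length was -0.67 with coding length in place of the longest transcript. Why these values moved was not tested.

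Leaving out each library in turn gave 29 to 31 genes higher and 6 to 9 lower (tested genes 19.3% to 20.9% and 48.2% to 50.5%), kept direction and call for 35 of the 41 genes, and gave ATP5F1C values from -0.069 to 0.062. With the replicate number as a block, 31 genes were higher and 7 lower (tested genes 21.0% and 50.01%), and all 41 kept direction and call. Same-numbered libraries correlated at 0.054, 0.035 and 0.091 in their deviations from the group means. Of the differently numbered pairs, shFAM111B replicate 2 and control replicate 1 were at 0.044 and the others between -0.076 and -0.013. All these correlations are small, so whether the numbers pair the libraries cannot be told from them. Filters and a pseudocount of 0.1 left 41 genes as they were, except that UQCRC1 lost its call without a filter. The depth of the libraries is unknown, so no limit on low values can be given.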
